A study of Mus musculus with 18 samples.

Results

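Mammals carry 6 actin genes, and all 6 were in the deposited gene table of 18909 genes. They were chosen by symbol: Acta2, Actg2, Acta1 and Actc1 are the muscle genes, and Actb and Actg1 are the cytoplasmic genes. The table covers 18 RNA libraries of mouse tumour lines of strain C57BL6, in 6 groups of 3 replicates. E0771 mammary tumour cells and B16F10 melanoma cells carried the pRetrox retroviral vector with MRTFA, with MRTFB or, in the controls, empty. All groups, controls included, were grown in RPMI with 10% FBS and received doxycycline at 500 ng/mL for 48 h, the agent that switches the transgene on. The labels do not say whether replicates were separate cultures, so every p-value measures only the spread between these libraries, which may be technical.

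Actin is the protein of thin filaments. The cytoplasmic isoforms are made in nearly all cells, and the muscle isoforms are made mainly in smooth muscle (Acta2 and Actg2), skeletal muscle (Acta1) and heart (Actc1), with Acta2 also the usual marker of myofibroblasts. MRTFA and MRTFB bind monomeric actin in the cytoplasm. When monomers are used up by filament growth they enter the nucleus and serve as coactivators of serum response factor (SRF), which binds a short A/T-rich element, the CArG box, near the start of many actin and contractile genes. Actin is therefore both the sensor that holds these coactivators back and, as a set of genes, among their best known targets.

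The 6 genes lie on different chromosomes, all on the minus strand (GRCm38, GENCODE M21). Acta2 spans chr19:34241090-34255590, Actg2 chr6:83512905-83536265, Acta1 chr8:123891769-123894751, Actc1 chr2:114047282-114053548, Actb chr5:142903115-142906754 and Actg1 chr11:120345690-120348542. The main transcripts have 9 exons in Acta2 and Actg2, 7 in Acta1 and Actc1, and 6 in Actb and Actg1. RefSeq (GRCm38.p6) start-site sequences were at hand for 4 of the 6 genes, Actc1, Acta1, Actg1 and Acta2. The 250 bases before each start were searched for the CArG box, whose pattern reads the same on both strands, and for sites with 1 base departing from it. The stretches that hold the sites are shown because MRTFA and MRTFB are coactivators of SRF. Whether the transgenes act through SRF in these cells was not tested. Capitals mark each 10-base site. They come from chr2:114052903-114053060 (Actc1), chr8:123894829-123894990 (Acta1), chr11:120348566-120348595 (Actg1), chr19:34255438-34255467 (Acta2, upstream site) and chr19:34255388-34255417 (Acta2, downstream site), each written 5′ to 3′ on the gene's strand.
Actc1: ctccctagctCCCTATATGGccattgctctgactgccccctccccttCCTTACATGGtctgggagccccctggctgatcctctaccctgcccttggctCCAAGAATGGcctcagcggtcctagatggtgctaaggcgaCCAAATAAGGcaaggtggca
Acta1: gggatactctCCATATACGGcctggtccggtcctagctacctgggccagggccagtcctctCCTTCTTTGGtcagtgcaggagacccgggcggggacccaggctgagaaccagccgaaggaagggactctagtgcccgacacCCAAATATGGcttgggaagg
Actg1: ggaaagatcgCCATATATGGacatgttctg
Acta2, upstream site: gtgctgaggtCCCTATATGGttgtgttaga
Acta2, downstream site: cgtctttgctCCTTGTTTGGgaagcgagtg

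Actc1, Acta1 and Actg1 each had 1 exact CArG box, CCAAATAAGG 47 to 38 bases before the start in Actc1, CCAAATATGG 73 to 64 bases before it in Acta1, and CCATATATGG 90 to 81 bases before it in Actg1. Actc1 had 3 further sites with 1 departure, Acta1 had 2 and Actg1 had none. Acta2 had no exact match in the window and 2 sites with 1 departure, CCCTATATGG and CCTTGTTTGG. GENCODE M21 places the Acta2 start farther upstream than RefSeq does, and both of these sites lie in 5′ untranslated sequence there. It also begins the Actc1 gene farther upstream, at chr2:114053548. The printed Actc1 sites thus lie within the GENCODE gene, outside its untranslated sequence. Of 32851 promoter windows of the same length, 1.47% held an exact CArG box and 18.6% held an exact box or a site with 1 departure. A match is a sequence description and carries no measure of binding in these cells.

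Libraries held 27607055 to 37116655 reads. Levels below are scaled reads, which are the authors' reads per gene divided by the size factor of the library. In E0771 the transgene's own gene was higher in the labelled libraries: Mkl1 (MRTFA in the table's older symbols) averaged 13728 ± 2454 scaled reads with MRTFA and 1349 ± 202 in controls, and Mkl2 (MRTFB) averaged 2158 ± 87.9 with MRTFB and 1344 ± 106 in controls (SD, n = 3 each). In B16F10 neither passed the test, and both ranges overlapped with those of the controls. Mkl1 averaged 1205 ± 266 in the libraries labelled MRTFA and 1015 ± 83.3 in controls (limma adjusted p = 0.856), and Mkl2 averaged 1886 ± 128 in those labelled MRTFB and 1501 ± 330 in controls (adjusted p = 0.503). The labels do not give the species or sequence of the transgenes. Summed over 7 melanocyte genes, B16F10 libraries held 18311 to 24545 RPM (reads scaled to a common library total) and E0771 libraries 10.7 to 20.2; summed over 7 mammary epithelial genes (Krt18 was not analysed here), E0771 libraries held 183 to 494 and B16F10 libraries 0.75 to 6.13. By these sums the lines matched their labels. The mammary sum was mostly Krt8, at a mean of 6720 scaled reads in E0771 controls. Between the control groups limma called all 7 melanocyte genes lower in E0771. Of 6 mammary genes tested there, Krt7, Epcam, Krt14 and Krt8 were called higher in E0771 and 1 was not called. Cdh1 was called lower, with means of 4.57 scaled reads in E0771 controls and 56.0 in B16F10 controls. Replicate 3 of the B16F10 libraries labelled MRTFB stood apart from replicates 1 and 2 in all 4 muscle actin genes, and results that rest on it are given with and without it.

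Without a transgene both lines expressed chiefly cytoplasmic actin, and they differed in how much muscle actin lay beneath it. Muscle actin genes took 15.2%, 9.49% and 10.1% of all actin reads in E0771 controls, against 0.501%, 0.194% and 0.782% in B16F10 controls. Nearly all of the muscle share was Acta2, which made up 98.4% to 98.8% of the muscle actin reads in E0771 controls and 88.3% to 94.5% in B16F10 controls. The 6 genes together took 0.4999% to 0.596% of all reads in E0771 controls and 0.327% to 0.364% in B16F10 controls.

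Set against B16F10 controls, E0771 controls had higher levels of 5 of the 6 actin genes, where 70.2% of all tested genes differed between the lines, 33.4% higher and 36.8% lower in E0771. Acta2 showed the widest gap, with 23963, 16568 and 18722 scaled reads in E0771 controls and 463, 176 and 798 in B16F10 controls, a log2 difference of 5.60 ± 0.66 (SE, limma adjusted p = 9.37e-07). Actg2 followed, with 354, 194 and 204 scaled reads in E0771 controls and 18.3, 11.7 and 60.1 in B16F10 controls (log2 difference 3.30, adjusted p = 0.00038). For both genes every E0771 control library lay above every B16F10 control library. Acta1 was low in both lines, at 24.3 to 33.2 scaled reads in E0771 controls and 4.81 to 17.2 in B16F10 controls (1.66, adjusted p = 0.0281), and its call was lost by edgeR (adjusted p = 0.253), with 10 added before the log, and without replicate 1 or 2 of either control group (adjusted p = 0.0574 to 0.114). The cytoplasmic genes were modestly higher in E0771, Actb by 0.56 (log2, adjusted p = 0.00188) and Actg1 by 0.66 (adjusted p = 0.00109). Actc1 rested on 7, 10 and 2 reads in the E0771 controls and 4, 5 and 5 in the B16F10 controls, and the ranges overlapped (0.21, 95% interval -1.33 to 1.75, adjusted p = 0.815).

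Per kilobase of exon, Actb was the most abundant actin RNA in both control groups, at 48890 ± 4549 scaled reads per kilobase in E0771 and 33204 ± 2475 in B16F10 (SD, n = 3 each). In E0771 controls Actg1 (9001 ± 1981) and Acta2 (8994 ± 1732) came next and their ranges overlapped, followed by Actg2, Acta1 and Actc1, each below the one before it without overlap. In B16F10 controls Actg1 stood at 5583 ± 285 per kilobase and Acta2 only at 218 ± 142. Actg2 and Acta1 overlapped there, and Actc1 was lowest at 2.78 ± 0.35.

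**Figure D1:**
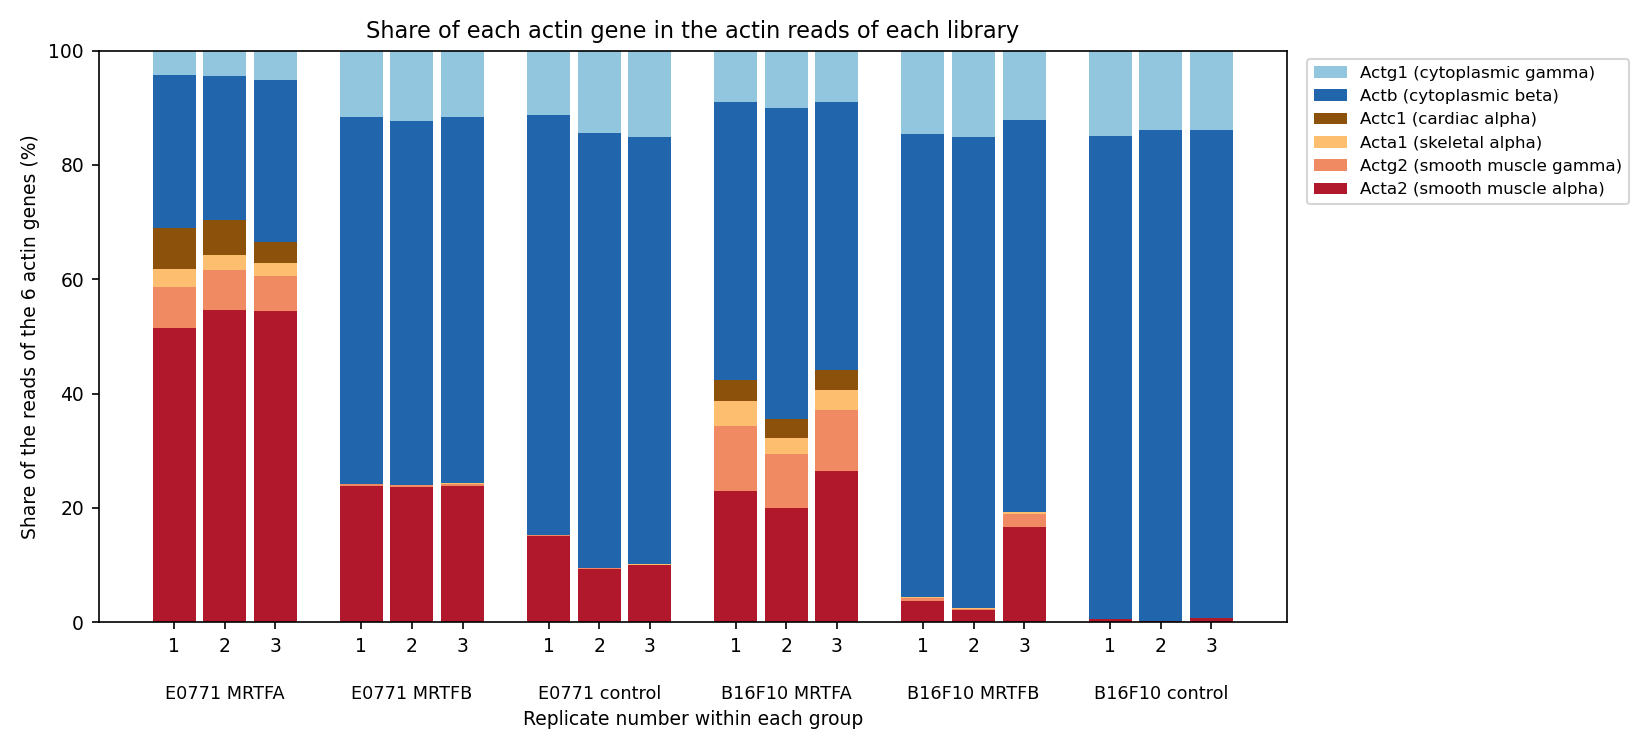
Share of each actin gene in the actin reads of each library (%, stacked to 100), with 3 replicates in each of the 6 groups. Muscle actin genes (warm colours) filled 66.5% to 70.4% of the bar in E0771 with MRTFA and 0.194% to 0.782% in B16F10 controls, and replicate 3 of the B16F10 libraries labelled MRTFB, at 19.3%, differed from replicates 1 and 2.

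With MRTFA in E0771 cells most actin reads came from muscle genes, where in controls most came from cytoplasmic genes. Muscle genes took 69.0%, 70.4% and 66.5% of the actin reads with MRTFA, against 15.2%, 9.49% and 10.1% in controls, and the actin genes together took 4.29%, 4.32% and 3.66% of all reads with MRTFA, against 0.4999%, 0.559% and 0.596% in controls. All 6 genes rose, the 4 muscle genes by 5.23 to 13.53 on the log2 scale and the cytoplasmic pair by 1.41 and 1.49. In this comparison 38.4% of the 13189 tested genes were called, 20.3% higher and 18.1% lower. The median log2 change was 9.42 over the muscle genes, 1.45 over the cytoplasmic genes and -0.02 over all tested genes.

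Acta2, the smooth muscle alpha actin, carried the largest amount of RNA. It had 716670, 813607 and 675541 scaled reads with MRTFA and 23963, 16568 and 18722 in controls, so that even the lowest MRTFA library exceeded the highest control 28.2-fold. The log2 change was 5.23 ± 0.16 (SE, adjusted p = 7.63e-09). Acta2 supplied 60.1% of the gain in depth-scaled actin reads, where Actb supplied 19.2% and each of the other genes under 8%.

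Actg2, the smooth muscle gamma actin of gut and bladder wall, had 99623, 102902 and 77309 scaled reads with MRTFA and 354, 194 and 204 in controls (log2 change 8.58 ± 0.21, adjusted p = 4.31e-09). Acta1, the skeletal muscle alpha actin, had 42353, 40768 and 27875 with MRTFA and 33.2, 29.0 and 24.3 in controls (10.26 ± 0.36, adjusted p = 2.01e-08). Both were far above every control library, and both were lowest in MRTFA replicate 3. Actc1, the cardiac alpha actin, had the largest fitted increase of the 13189 tested genes. It had 101414, 91111 and 45202 scaled reads with MRTFA and 7.05, 10.0 and 1.87 in controls, which are 101812, 98086 and 43259 reads against 7, 10 and 2 reads (13.53 ± 0.47, adjusted p = 2.01e-08). The size of that change depends on the few control reads and on the added value of 1; the adjusted p is from limma, as are the others given here unless another tool is named.

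Actb, the beta cytoplasmic actin often used as a reference gene, had 371127, 375292 and 352333 scaled reads with MRTFA and 117347, 134757 and 140825 in controls (1.49 ± 0.13, adjusted p = 1.22e-05). Actg1, the gamma cytoplasmic actin, had 59361, 65225 and 62968 with MRTFA and 18077, 25411 and 28288 in controls (1.41 ± 0.16, adjusted p = 7.38e-05). The ranges were apart for both genes, with ratios of group means of 2.80 for Actb and 2.61 for Actg1. Much of the Actg1 sequence is also present in processed copies: 51.1% of its 100-base words occur in transcripts of another annotated gene, chiefly the pseudogene Gm12715, against 1.10% for Actb and 0 for the muscle genes. No 100-base word is common to any pair of the 6 actin genes. Gm12715 held 925 ± 68.1 scaled reads with MRTFA and 321 ± 99.5 in controls (SD, n = 3 each), a small amount beside Actg1. How reads with several matches were counted is unknown, so the levels of genes with shared words, Actg1 above all, are uncertain to that extent.

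Ranked per kilobase, Acta2 stood first in E0771 with MRTFA, at 334824 ± 32280 scaled reads per kilobase, above Actb at 136712 ± 4566 without overlap. Actg2 (59909 ± 8944) and Actc1 (48976 ± 18496) came next and overlapped, and Acta1 (24088 ± 5170) overlapped with Actg1 (23521 ± 1113), which had the lowest mean. The lengths used were of all annotated exons, 2658 bases for Actg1 and 1536 for Acta1. Their longest transcripts have 1952 and 1446 bases, so the place of Actg1 relative to Acta1 depends on the length chosen. Counted per kilobase, muscle genes took 74.4% ± 1.92 of actin RNA with MRTFA and 13.8% ± 3.68 in controls (SD, n = 3 each). In bulk RNA, a change in the share of cells that express a gene and a change in the amount of its RNA per cell cannot be told apart.

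**Figure D2:**
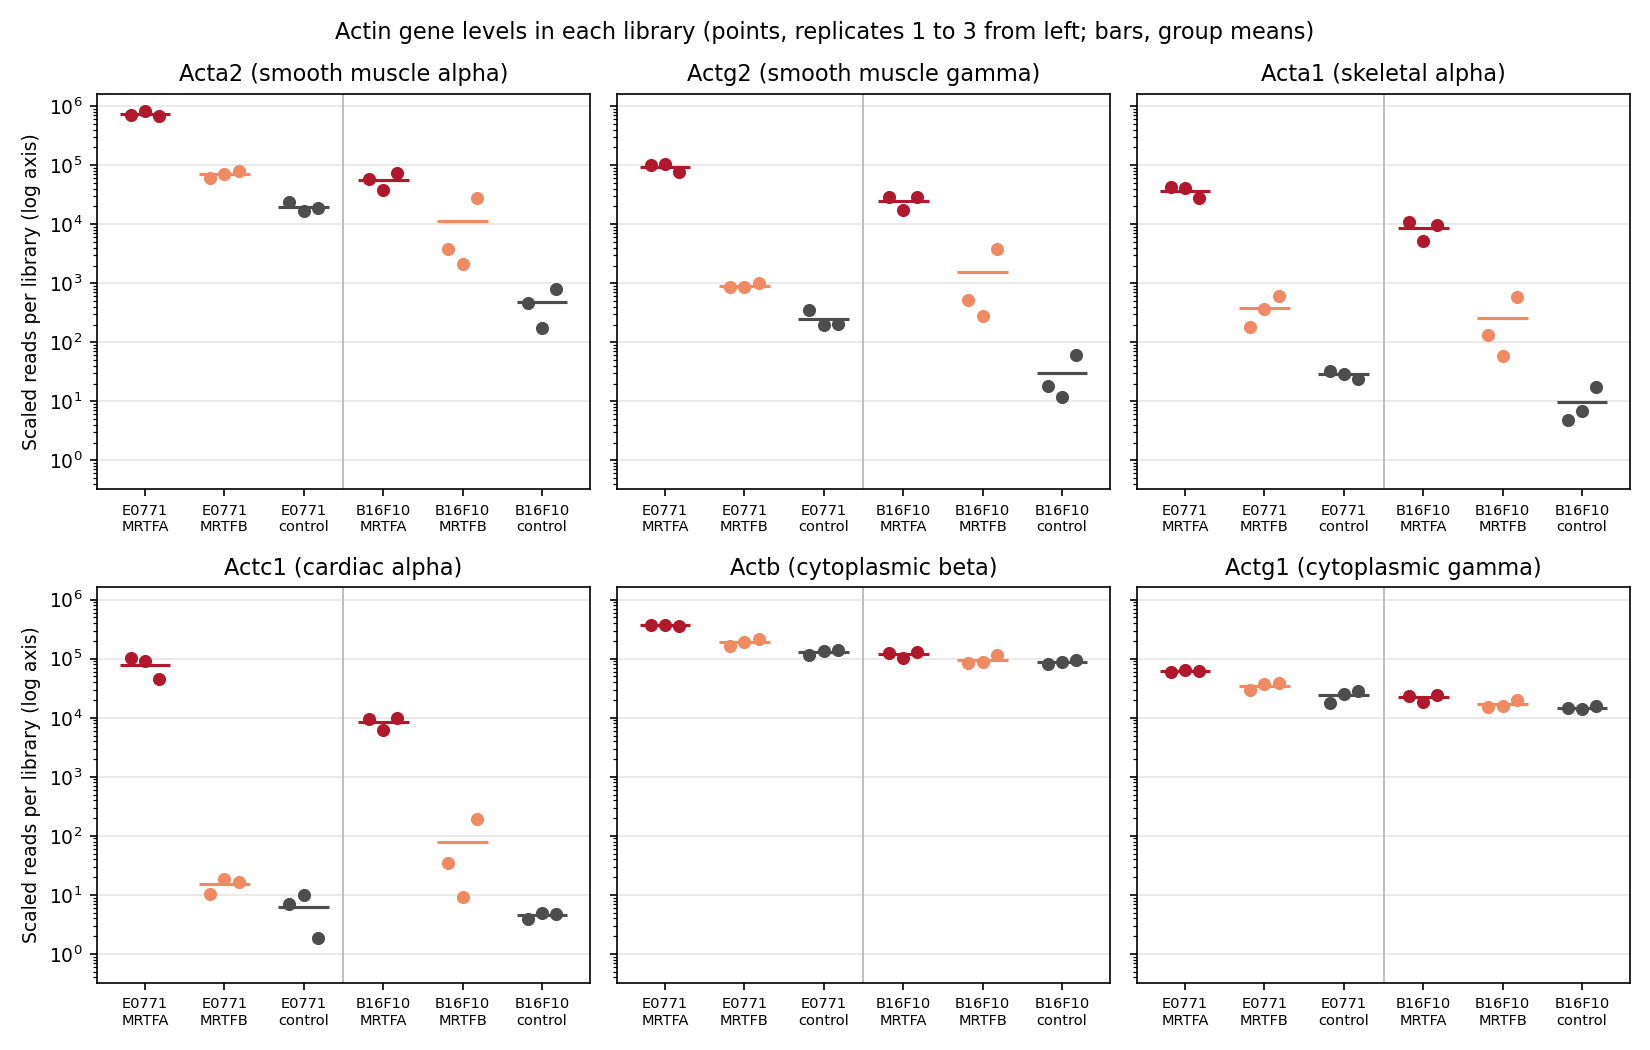
Scaled reads of each actin gene in each library on a log axis, with replicates 1 to 3 from left to right in each group and a bar at the group mean. Actc1 lies between 1.87 and 101414 scaled reads over the 18 libraries, while Actb stays between 82674 and 375292.

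In B16F10 cells the libraries labelled MRTFA also held far more muscle actin RNA than their controls, which had little of it. Muscle genes took 42.5%, 35.5% and 44.2% of actin reads in the libraries labelled MRTFA, against 0.501%, 0.194% and 0.782% in controls. All 4 muscle genes rose and neither cytoplasmic gene passed the test, where 1.55% of 13517 tested genes were called, 1.34% higher and 0.207% lower. The median log2 change was 9.87 over the muscle genes, 0.49 over the cytoplasmic genes and -0.0098 over all tested genes. Actin took 0.847%, 0.594% and 0.898% of all reads in the libraries labelled MRTFA and 0.327%, 0.333% and 0.364% in controls.

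Acta2 had 58811, 37313 and 72885 scaled reads in the libraries labelled MRTFA and 463, 176 and 798 in controls (log2 change 7.07 ± 0.83, adjusted p = 0.00133). Actg2 had 28907, 17741 and 29099.9 in those labelled MRTFA and 18.3, 11.7 and 60.1 in controls (9.97 ± 0.84, adjusted p = 0.000232). Acta1 had 11111, 5114 and 9773 in those labelled MRTFA and 4.81, 6.82 and 17.2 in controls (9.78 ± 0.73, adjusted p = 0.00013). These 3 genes were each far above every control library, by at least 46.8-fold from the lowest labelled library to the highest control, and each was lowest in replicate 2 of the labelled libraries. Actc1 had 9686, 6148 and 9915 scaled reads in the libraries labelled MRTFA and 3.85, 4.87 and 4.77 in controls, or 4, 5 and 5 control reads (10.58 ± 0.80, adjusted p = 0.00013), again the largest fitted increase among all tested genes. DESeq2 gave no adjusted p for Actc1 and Actg2.

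Actb had 124173, 101721 and 129090 scaled reads in the libraries labelled MRTFA and 82674, 88301 and 95887 in controls (0.41, 95% interval 0.08 to 0.73, adjusted p = 0.352). Actg1 had 22940, 18803 and 24544 in those labelled MRTFA and 14546, 14274 and 15701 in controls (0.57, 95% interval 0.28 to 0.85, adjusted p = 0.067). The ranges did not overlap for either gene. Equal replicate numbers paired these libraries, and with replicate number as a block both passed, Actb with an adjusted p of 0.024 and Actg1 with 0.0012. Actg1 also passed by DESeq2 (adjusted p = 0.00228), and in limma without replicate 3 of the libraries labelled MRTFB, which share the fit (adjusted p = 0.0215).

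Per kilobase, the order in B16F10 libraries labelled MRTFA began with Actb at 44169 ± 5446 scaled reads per kilobase, above Acta2 at 25654 ± 8158 without overlap. Acta2 overlapped with Actg2 (16217 ± 4177), and Actg1 (8313 ± 1114), Acta1 (5642 ± 2049) and Actc1 (5305 ± 1305) overlapped each with the next. The overlap of Actg1 with Acta1 depends on the length chosen here too, as their longest transcripts have 1952 and 1446 bases. Muscle genes took 49.5% ± 4.74 of actin RNA per kilobase in the libraries labelled MRTFA and 0.620% ± 0.370 in controls (SD, n = 3 each).

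With MRTFB in E0771 cells the differences from control were smaller than with MRTFA, and nearly all muscle actin RNA was Acta2. The MRTFA and MRTFB comparisons of each line share their control libraries. Acta2, Actg2 and Acta1 rose, and Actc1, Actb and Actg1 did not pass the test, where 0.144% of 13189 tested genes were called, 0.136% higher and 0.00758% lower. Muscle genes took 24.2%, 24.0% and 24.3% of actin reads with MRTFB, against 15.2%, 9.49% and 10.1% in controls, and the ranges did not overlap. Actin took 0.808%, 0.927% and 1.06% of all reads with MRTFB and 0.4999%, 0.559% and 0.596% in controls. The median log2 change was 1.87 over the muscle genes, 0.54 over the cytoplasmic genes and -0.0077 over all tested genes.

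Acta2 had 59670, 70463 and 79723 scaled reads with MRTFB and 23963, 16568 and 18722 in controls (1.83 ± 0.16, adjusted p = 0.00116). Actg2 had 872, 849 and 1016 with MRTFB and 354, 194 and 204 in controls (1.91 ± 0.21, adjusted p = 0.00537). Acta1 had 180.1, 365 and 610.2 with MRTFB and 33.2, 29.0 and 24.3 in controls (3.54 ± 0.36, adjusted p = 0.00366), the largest fitted increase of any tested gene in this comparison. All 3 lay above every control library, and all 3 calls were lost when no filter on low values was applied, with adjusted p of 0.0542 for Acta2, 0.11 for Actg2 and 0.0925 for Acta1.

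Actc1 stayed at the edge of detection, with 9, 20 and 15 reads with MRTFB and 7, 10 and 2 reads in controls (1.31, 95% interval 0.26 to 2.36, adjusted p = 1). Actb had 161225, 189861 and 214053 scaled reads with MRTFB and 117347, 134757 and 140825 in controls (0.52, 95% interval 0.22 to 0.82, adjusted p = 0.557). Actg1 had 29146, 36622 and 38914 with MRTFB and 18077, 25411 and 28288 in controls (0.56, 95% interval 0.20 to 0.92, adjusted p = 0.821). For these 3 genes the MRTFB libraries all lay above the controls, by as little as 1.011-fold for Actc1, 1.03-fold for Actg1 and 1.14-fold for Actb between the lowest MRTFB library and the highest control. Before scaling, the lowest MRTFB library held fewer Actc1 reads than the highest control. The intervals are for single genes and are not adjusted over the genes tested.

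In the B16F10 libraries labelled MRTFB, all 4 muscle genes lay above every control library, while the replicates were unequal and none of the 6 passed limma, in a comparison where 0.126% of 13517 tested genes were called, 0.0148% higher and 0.111% lower. At an unadjusted p under 0.05, limma had 1199 genes in all, among them the 4 muscle genes and neither cytoplasmic gene. By other tools, edgeR called none of the 6, and DESeq2 called Acta2 and Acta1 and gave no adjusted p for Actg2 and Actc1. Equal replicate numbers paired these libraries, and with replicate number as a block all 4 muscle genes were called, with adjusted p of 0.00174 for Acta2, 0.00108 for Actg2, 0.00174 for Acta1 and 0.0248 for Actc1. The median log2 change was 4.05 over the muscle genes, 0.15 over the cytoplasmic genes and 0.0012 over all tested genes.

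Acta2 had 3856, 2146 and 28018 scaled reads in the libraries labelled MRTFB and 463, 176 and 798 in controls (3.93, 95% interval 2.08 to 5.78, adjusted p = 0.159). Actg2 had 528, 281 and 3772 in those labelled MRTFB and 18.3, 11.7 and 60.1 in controls (5.07, 95% interval 3.19 to 6.94, adjusted p = 0.0702). Acta1 had 132, 59.0 and 596 in those labelled MRTFB and 4.81, 6.82 and 17.2 in controls (4.16, 95% interval 2.55 to 5.78, adjusted p = 0.0775). Replicate 3 was the highest library of its group in each of these genes, in the labelled libraries and in the controls alike. Actc1 had 35.3, 9.32 and 195 scaled reads in the libraries labelled MRTFB and 3.85, 4.87 and 4.77 in controls (2.94, 95% interval 1.16 to 4.71, adjusted p = 0.267).

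Replicate 3 of the labelled libraries exceeded the mean of replicates 1 and 2 by 9.34-fold in Acta2, 9.33-fold in Actg2, 6.26-fold in Acta1 and 8.77-fold in Actc1, but by only 1.35-fold in Actb and 1.30-fold in Actg1. Without that library the log2 change of Actg2 was 3.97 and passed the test (adjusted p = 0.0371), while Acta2 (2.83), Acta1 (3.25) and Actc1 (1.82) did not. The ratios of means against control were 6.27 for Acta2, 13.5 for Actg2, 9.92 for Acta1 and 4.96 for Actc1, and the muscle shares of the remaining libraries were 4.33% and 2.38%. Without control replicate 3, Actg2 (5.72, adjusted p = 0.0166) and Acta1 (4.64, adjusted p = 0.0271) passed. Replicate 3 of the labelled libraries held 1.002 scaled reads of Krt8, which averaged 15549 in E0771 with MRTFA, but 34.1 of Krt7, against 0 and 1.04 in replicates 1 and 2 and a mean of 330 in E0771 with MRTFA. Krt7 also had a higher mean in the B16F10 libraries labelled MRTFA, 57.4 against 2.89 in B16F10 controls, but did not pass limma (adjusted p = 0.172). Of 4 mammary genes tested in that comparison only Krt19 was called (4.44, adjusted p = 0.00133), with means of 22.1 and 0 scaled reads. The 7 mammary epithelial genes summed to at most 2.03 RPM in the libraries labelled MRTFB. Replicate 3 held 1955 scaled reads of Mkl2, within the range of 1738 to 1964 of the other libraries labelled MRTFB; its 1131 scaled reads of Mkl1 compare with 977 and 768 in replicates 1 and 2.

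The cytoplasmic genes of these libraries were close to the controls. Actb had 85245, 86525 and 115864 scaled reads in those labelled MRTFB and 82674, 88301 and 95887 in controls (0.10, 95% interval -0.23 to 0.42, adjusted p = 0.933). Actg1 had 15376, 15897 and 20347 in those labelled MRTFB and 14546, 14274 and 15701 in controls (0.20, 95% interval -0.08 to 0.49, adjusted p = 0.74). Both ranges overlapped with those of the controls. The muscle share of actin reads was 4.33%, 2.38% and 19.3% in the libraries labelled MRTFB and 0.501%, 0.194% and 0.782% in controls.

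**Figure D3:**
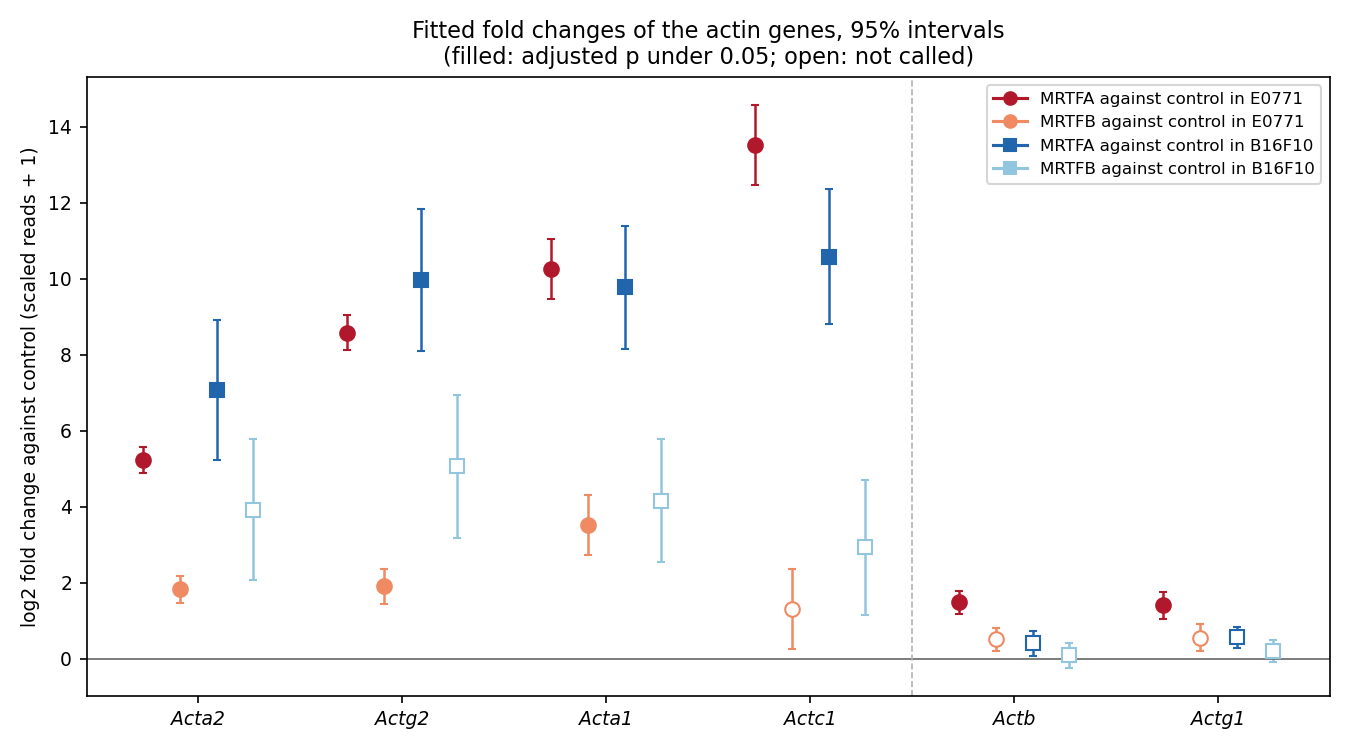
Fitted log2 fold changes of the 6 actin genes against the control libraries of the same line, on scaled reads plus 1, with unadjusted 95% intervals (filled, adjusted p under 0.05; open, not called; n = 3 a group). The muscle genes, left of the dashed line, reach 13.53 for Actc1 with MRTFA in E0771, and the cytoplasmic genes reach 1.49; the MRTFA and MRTFB comparisons of a line share their control libraries.

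MRTFB was set directly against MRTFA within each line. In E0771 all 6 actin genes were lower with MRTFB than with MRTFA, where 33.6% of tested genes were called, 14.5% higher and 19.1% lower. The log2 differences were -12.22 for Actc1, -6.73 for Acta1, -6.67 for Actg2, -3.40 for Acta2, -0.97 for Actb and -0.85 for Actg1, with adjusted p between 2.18e-08 for Actg2 and 0.00253 for Actg1. With MRTFB, Actb was the most abundant actin RNA per kilobase (70317 ± 9871), followed by Acta2 (31854 ± 4570), Actg1 (13128 ± 1922), Actg2 (586 ± 58.1), Acta1 (251 ± 140) and Actc1 (9.38 ± 2.79 scaled reads per kilobase; SD, n = 3), with no overlap between neighbours.

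In B16F10 the libraries labelled MRTFB were lower than those labelled MRTFA in Actc1 (-7.65, adjusted p = 0.00106), Acta1 (-5.61, adjusted p = 0.00357) and Actg2 (-4.90, adjusted p = 0.0191), where 1.09% of tested genes were called, 0.0148% higher and 1.08% lower. The Actg2 call was lost by edgeR (adjusted p = 0.0726), without a filter on low values (0.0962), and without any of the libraries labelled MRTFA or replicate 1 or 2 of those labelled MRTFB (adjusted p = 0.067 to 0.221). The Acta1 call was lost without replicate 1 (adjusted p = 0.0799) or 3 (0.0513) of those labelled MRTFA. Acta2 did not pass (-3.14, 95% interval -4.99 to -1.30, adjusted p = 0.202), although every library labelled MRTFB lay below every library labelled MRTFA. These libraries were paired by replicate number too, and with the block Acta2 (adjusted p = 0.0014) and Actg1 (-0.36, adjusted p = 0.0276) were called as well. Without replicate 3 of the libraries labelled MRTFB, Acta2 was called at -4.24 (adjusted p = 0.00226). Actb differed by -0.31 (95% interval -0.63 to 0.01, adjusted p = 1).

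The effect of MRTFA was then compared between the lines. The cytoplasmic genes rose more in E0771 than in B16F10, Actb by a log2 difference of 1.08 ± 0.20 (SE, adjusted p = 0.000948) and Actg1 by 0.84 ± 0.22 (adjusted p = 0.0123), where 21.1% of 14859 tested genes were called, 12.6% higher and 8.55% lower. For the muscle genes no difference was called. Actc1 differed by 2.95 (95% interval 0.76 to 5.13, adjusted p = 0.0522), Acta2 by -1.84 (-3.83 to 0.15, adjusted p = 0.183), Actg2 by -1.39 (-3.43 to 0.66, adjusted p = 0.341) and Acta1 by 0.49 (-1.42 to 2.39, adjusted p = 0.75). Mkl1 itself also moved with the line, as given above, and its part in these differences was not tested.

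The spread of the B16F10 libraries labelled MRTFB entered that estimate through the shared fit. Without their replicate 3, Actc1 (2.95, adjusted p = 0.00699) and Acta2 (-1.84, adjusted p = 0.0284) were called too, in opposite directions. Actc1 was also called without their replicate 2 (adjusted p = 0.0142), E0771 MRTFA replicate 3 (0.044) or E0771 control replicate 2 (0.0407), and with a filter at 50 scaled reads (0.0497). For MRTFB no actin gene differed in effect between the lines by limma, where 0.114% of tested genes were called, 0.101% higher and 0.0135% lower. At the same time 811 of all tested genes had an unadjusted p under 0.05, among them Acta2 (-2.10), Actg2 (-3.16) and Actb (0.42), and edgeR and DESeq2 called none of the 6, with no adjusted p from DESeq2 for Actg2.

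The make-up of the muscle actin reads differed between MRTFA and the other groups. In E0771, Acta2 made up 74.6%, 77.6% and 81.8% of muscle actin reads with MRTFA, against 98.0% to 98.3% with MRTFB and 98.4% to 98.8% in controls. Actg2 supplied 9.36% to 10.4% with MRTFA, Actc1 5.47% to 10.6% and Acta1 3.38% to 4.41%. In B16F10, Acta2 made up 54.2% to 59.9% of muscle actin reads in the libraries labelled MRTFA, 84.7% to 86.0% in those labelled MRTFB and 88.3% to 94.5% in controls. Actg2 was the second gene there, at 23.9% to 26.8% with the MRTFA label, 11.2% to 11.6% with the MRTFB label and 3.73% to 6.83% in controls. Replicate 3 of the libraries labelled MRTFB, with its higher amount of muscle actin, had 86.0% Acta2, 11.6% Actg2 and 0.600% Actc1, between the values of replicates 1 and 2, and 1.83% Acta1, below their 2.89% and 2.37%.

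The proportion of the cytoplasmic pair varied little. Actb made up 83.3% to 86.7% of the cytoplasmic actin reads in all 18 libraries, with a median of 84.7%. The ratio of Actb to Actg1 reads was 6.25, 5.75 and 5.60 in E0771 with MRTFA and 6.49, 5.30 and 4.98 in E0771 controls. It was 5.41, 5.41 and 5.26 in B16F10 libraries labelled MRTFA and 5.68, 6.19 and 6.11 in B16F10 controls, where the ranges did not overlap. With exon lengths of 2679 and 2658 bases, the ratio per kilobase was 4.94 to 6.44 over all libraries.

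**Figure D4:**
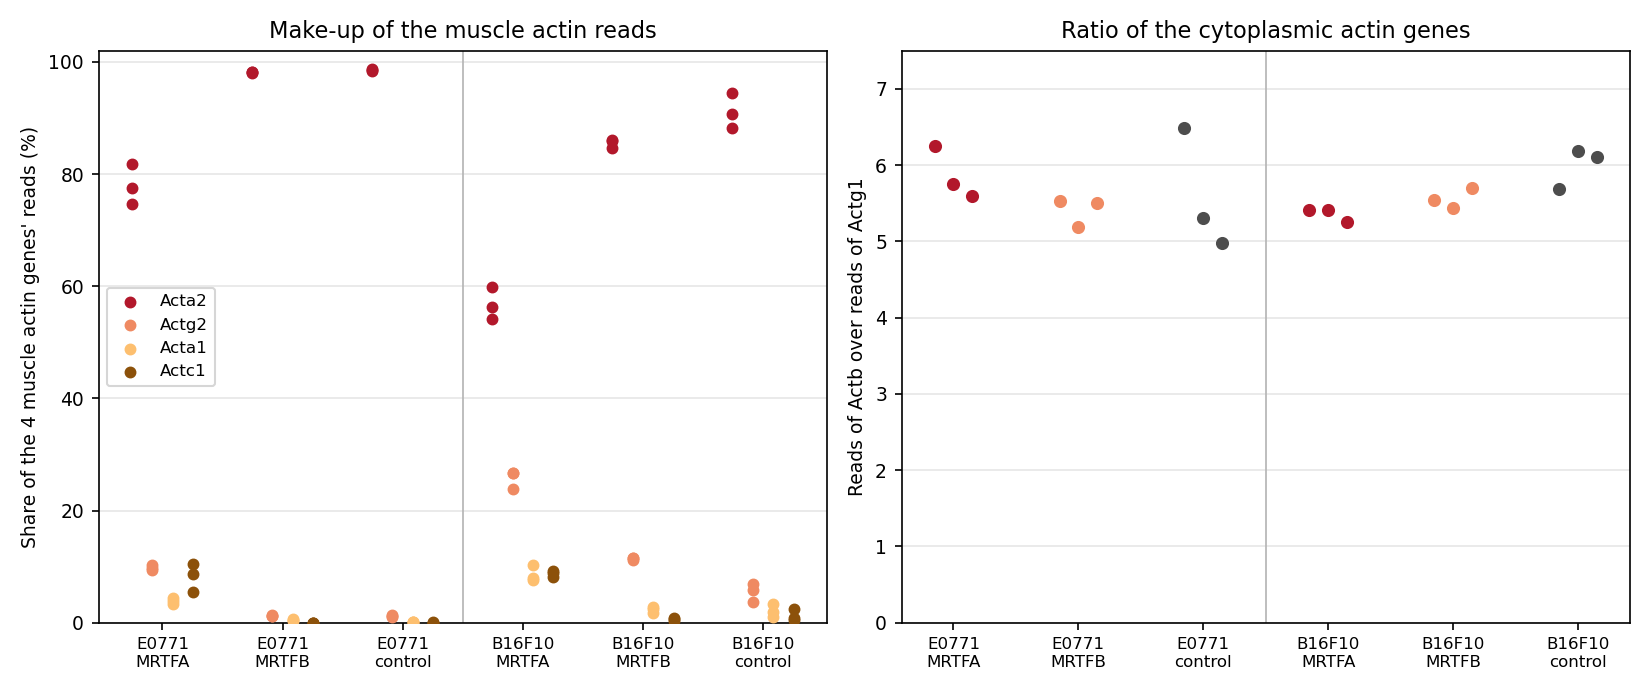
Left, share of each muscle actin gene in the reads of the 4 muscle genes (%), 1 point a library and 3 libraries a group; right, reads of Actb over reads of Actg1 in the same libraries. Acta2 makes up 54.2% to 59.9% of the muscle reads in B16F10 libraries labelled MRTFA, while the Actb to Actg1 ratio stays between 4.98 and 6.49 in all libraries.

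For each actin gene the 3 genes with the most similar pattern were listed by Pearson correlation of log2(scaled reads + 1) over the 18 libraries, among 10763 genes with a mean of at least 50 scaled reads. The actin genes themselves and predicted genes were left out of this ranking, and correlations among the actins are given after it. These correlations describe points that share groups and libraries and carry no test. Outside the actin family, Actb was most like Nacad (0.984), Vcl (0.983), which encodes the focal adhesion protein vinculin, and Flna (0.981), which encodes the actin crosslinker filamin A; Actg1 had the same 3 genes, led by Vcl (0.984). Acta2 was most like Ankrd1 (0.989), an ankyrin repeat protein of heart and muscle, Tnc (0.973), the matrix protein tenascin C, and Tpm2 (0.952), beta tropomyosin. Actg2 was most like Kcnmb1 (0.983), a potassium channel subunit of smooth muscle, the receptor gene Pilra (0.971) and Tagln (0.957), the smooth muscle protein transgelin.

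Acta1 was most like Kcnmb1 (0.990), Pilra (0.979) and Myh11 (0.973), the smooth muscle myosin heavy chain. Actc1 was most like Pdlim3 (0.984), Hspb6 (0.982), a small heat shock protein of muscle, and Uts2b (0.981); Pdlim3 and Uts2b were at 0 reads in the B16F10 controls. Among the actin genes the closest pairs were Actb with Actg1 (0.991), above any gene in the ranking of either, and Actg2 with Acta1 (0.986), and the least alike were Actc1 and Actg1 (0.626). Kcnmb1 shows the pattern of the second pair: it averaged 1685 scaled reads in E0771 with MRTFA, 18.3 with MRTFB and 2.61 in controls, and 379, 24.7 and 0.954 in B16F10 libraries labelled MRTFA, labelled MRTFB and controls.

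Genes whose products handle actin were followed in lists, given as counts of called members. With MRTFA in E0771, the median of all tested genes was -0.02, with 20.3% called higher and 18.1% called lower. There 10 of 13 tested crosslinker genes rose and none fell (median 1.72). They included Actn1 (1.98), a non-muscle alpha-actinin, and Flna (1.72), and Actn2, the striated muscle alpha-actinin, rose by 6.77 to 387 ± 81.1 scaled reads with MRTFA, against 2.58 ± 0.998 in controls. Of 22 tested genes of monomer binding and filament turnover, 11 rose and none fell (median 0.30). They included Tmsb4x, the monomer-sequestering thymosin beta-4 (2.53), the severing proteins Dstn (2.43) and Cfl2 (1.51), and Cotl1, coactosin-like protein (3.86).

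Of 8 tested genes for enzymes that modify actin or act with them, 5 rose and none fell (median 1.10). Both sides of actin oxidation were among them: Mical2 (2.15), Mical1 (1.44) and Mical3 (1.02) encode enzymes that oxidise actin methionines, and Msrb1 (3.004) encodes an enzyme that reduces them again. Among 22 tested nucleation genes 6 rose and 3 fell (median 0.12), with Arp2/3 complex subunits Arpc5 (1.603), Arpc4 (0.76) and Actr3 (0.73) higher and the formin Fmnl2 lower (-0.70), against 20.3% higher and 18.1% lower over the whole table. The folding list went the other way: of 15 genes of the chaperonin that folds actin, prefoldin and helpers, 8 fell and 1 rose (median -0.32), with Cct8 at -0.46, Cct6a at -0.43 and Pfdn6 at -0.32, and Pdcl3, which was higher by 1.06. Of 7 tested actin-related protein genes 2 fell and none rose (median -0.04), Actr6 by 0.65 and Actl6a by 0.27 on the log2 scale, in a comparison where 18.1% of all tested genes were called lower. Of 3 tested regulators 2 rose (median 2.18), Mkl1 (3.34) and Srf (2.18), and Mkl2 was not called (-0.19). Mkl1 is the transgene's own gene, so its rise is no independent result. Reads of the transgene and of the cell's own Mkl1 were not told apart.

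In the other comparisons with control few genes were called, in these lists as over all tested genes. Of all tested genes, 1.55% were called for MRTFA in B16F10, 0.144% for MRTFB in E0771 and 0.126% for MRTFB in B16F10. In B16F10 libraries labelled MRTFA, Msrb1, Dstn and the crosslinker gene Lcp1, which encodes L-plastin, rose and Tmsb4x fell, while no folding, nucleation, actin-related or regulator gene was called. The median of the 11 crosslinker genes tested there was 0.64. With MRTFB in E0771, Tmsb4x rose, as did Mkl2, the transgene's own gene, and no other member of these lists was called. In B16F10 libraries labelled MRTFB none was called, although 1199 of all tested genes had an unadjusted p under 0.05. The difference between lines in the MRTFA effect was called higher in E0771 for 9 of 13 crosslinker genes (median 1.06) and 11 of 22 monomer and turnover genes (median 0.48), against 12.6% called higher, 8.55% called lower and a median of 0.0027 over all tested genes. It was called for 4 of 9 modification genes, all higher, for 7 of 22 nucleation genes, 4 higher and 3 lower, for 3 of 15 folding genes, 1 higher and 2 lower, and for no actin-related gene.

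Muscle markers other than actin were read in the same libraries. The 4 smooth muscle markers summed to 343 to 482 RPM in E0771 with MRTFA and 93.3 to 142 in controls, and to 114 to 211 in B16F10 libraries labelled MRTFA and 60.8 to 71.4 in controls. In controls these sums were mostly Smtn, at 3878 ± 802 scaled reads in E0771 and 1985 ± 133 in B16F10. Smtn was called higher with MRTFA in E0771 (1.44). It was not called in the B16F10 libraries labelled MRTFA (0.02), where it averaged 2081 ± 601. Cnn1 was called higher in both lines (6.07 and 9.41). Myh11 had 1984 ± 543 scaled reads in E0771 with MRTFA and 2.92 ± 0.87 in controls, and 2136 ± 656 in B16F10 libraries labelled MRTFA and 1.93 ± 0.98 in controls (SD, n = 3 each). Myocd, a coactivator found in smooth muscle, held 9 reads in all with MRTFA and none in controls of E0771, and 8 and 2 reads in the B16F10 libraries labelled MRTFA and controls. Of 7 skeletal muscle markers only Ckm and Des were analysed here, summing to 11.5 to 38.0 RPM in E0771 with MRTFA and 2.10 to 2.27 in controls, and of 6 heart markers 4 were analysed here, summing to 5.02 to 13.3 with MRTFA and 1.04 to 1.32 in controls. In B16F10 the skeletal pair summed to 3.13 to 5.79 in libraries labelled MRTFA and 1.33 to 2.60 in controls, and the heart markers to 4.94 to 9.21 and, in controls, 2.42 to 9.18. Ckm was called higher in those libraries, at 83.7 ± 28.8 scaled reads against 3.85 ± 1.90 in controls. Des was not called (0.08), at 58.9 ± 11.8 and 57.0 ± 18.9. Of the 2 heart markers tested there, Myh6 was called higher, with 34.3 ± 17.7 scaled reads in the labelled libraries and 0 in controls. Tnnt2 was not called, at 162 ± 61.9 and 148 ± 116. With MRTFB the smooth muscle sums were 107 to 179 in E0771 and 50.3 to 69.8 in B16F10. Myh11 was nonetheless called higher with MRTFB in E0771 (3.04, limma adjusted p = 0.0142), at 34.0 ± 19.6 scaled reads. Cnn1 (1.61) and Smtn (0.14) were not called there, and in B16F10 none of the 3 tested was. Sums over 4 fibroblast and pericyte markers were 380 to 469 RPM with MRTFA and 120 to 222 in controls of E0771, and 24.3 to 101 in B16F10 libraries labelled MRTFA and 15.5 to 65.9 in its controls. Of these markers Col3a1, a fibrillar collagen, was called higher in both lines, by 2.11 in E0771 (adjusted p = 1.07e-05) and by 5.86 in the B16F10 libraries labelled MRTFA (adjusted p = 0.000707). Immune (Cd68 only) and endothelial (2 of 3) markers reached at most 3.88 and 0.843 RPM in every library. The part of other cell types in the actin results was not tested.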

How the data were processed

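Groups of the 18 RNA libraries follow the labels, by cell line and transgene. The submitters' processing notes name cutadapt 1.6, STAR 2.5.0a, HTSeq 0.5.3, DESeq with no version, and the mm10 build. Annotation release, strandedness, counting mode and read length were not given in the sources used here. The authors deposited a signal for each gene, its reads divided by the size factor of the library. Values were whole multiples of 1 step within 0.001 read, so whole read counts were recovered from the deposited table (27607055 to 37116655 per library); recomputed size factors matched the steps. Each gene has at least 15 reads over the libraries. No molecular identifiers are described.

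Genes with at least 10 scaled reads in at least 3 fitted libraries entered limma 3.58.1 with a mean-dependent prior, on log2(scaled reads + 1), over each line's 9 libraries, or all 18 for differences between lines and for the control lines. Calls were two-sided, at p-values under 0.05 after Benjamini-Hochberg adjustment; 95% intervals are per gene. All 6 actin genes passed this filter in these fits; with only the libraries of the 2 groups compared, Actc1 did not pass it for MRTFB against control in B16F10. Fold changes of genes with few reads are understated by the added 1. Shares were described and not tested. Alternatives were edgeR 4.0.16 and DESeq2 1.42.0 on recovered reads, TMM and upper-quartile scaling, other added values and filters, single libraries left out, and the replicate number as a block.

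To see whether equal replicate numbers pair libraries, their departures from the group mean were correlated across genes. In E0771 the values were 0.459 to 0.553 for MRTFB against control and 0.134 to 0.474 for the direct comparison of MRTFB with MRTFA. In B16F10, MRTFA against control gave 0.353 to 0.567, MRTFB against control 0.382 to 0.486, and the direct comparison 0.403 to 0.634. These numbers were read as pairs (every value over 0.1). MRTFA against control in E0771 (lowest 0.0842) and libraries across lines (lowest 0.0517) were not. What a replicate number marks is not in the labels. Libraries of a group differed by a chi-square per degree of freedom of 11.7 to 59.2, so none was a duplicate.

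Exon lengths and transcripts came from GENCODE M21 (GRCm38), promoter sequences from RefSeq (GRCm38.p6). The members and lists were chosen with earlier results of these data known. Named genes were the 6 actins, the 3 most similar genes of each, list members called with MRTFA in E0771 (up to 4 by adjusted p, predicted genes left out), and the transgenes; Gm12715, markers and list members named for other comparisons were named after their values were seen. 1 gene that this rule names is not reported here.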

Additional observations from a re-analysis of the deposited data

Results flagged for a closer look

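The effect of MRTFA differed between the lines, by limma's test of the difference over all 18 libraries, in 2 actin genes. Actb had a difference of 1.08 on the log2 scale (adjusted p = 0.000948), being 1.49 higher with MRTFA in E0771 and 0.41 higher in the B16F10 libraries labelled MRTFA, each against its own controls. Actg1 had a difference of 0.84 (adjusted p = 0.0123), being 1.41 higher in E0771 and 0.57 higher in B16F10. In both genes all 3 libraries with the MRTFA label exceeded all 3 controls in both lines. Mkl1 was 3.34 higher with MRTFA in E0771 and 0.22 higher in the B16F10 libraries labelled MRTFA; its part in the differences was not tested.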

How the results depend on the processing

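Of 1160 recomputed actin fold changes, 1114 kept their direction and side of the threshold, 25 newly passed it, 18 no longer passed and 3 reversed. With single libraries left out these were Actb for MRTFB in B16F10 (-0.048 to 0.17) and Acta1 for the line difference in the MRTFB effect (-1.37 to 0.29), both reversed without replicate 3 of the B16F10 libraries labelled MRTFB, and Actc1 between control lines (-0.19 to 0.78, reversed without E0771 control replicate 2). None of the 3 was called in either setting. The number of actin genes called for MRTFB in E0771 was 3, and 0 without a filter. For MRTFB in B16F10 it was 0, against 2 by DESeq2, 4 with the replicate block and 0 to 2 with single libraries left out (1 without replicate 3 of the libraries labelled MRTFB, 2 without control replicate 3). For MRTFB against MRTFA in B16F10 it was 3, against 1 by DESeq2 (no adjusted p for Actg2 and Actc1), 5 with the block and 1 to 4 with single libraries left out (1 without replicate 1 or replicate 3 of those labelled MRTFA). For the line difference in the MRTFA effect it was 2, and 2 to 4 with single libraries left out. Beyond these, the block changed only the calls of Actb and Actg1 for MRTFA in B16F10 (6 called against 4), in paired and unpaired comparisons alike.

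The muscle share with Acta2 left out was 32.5%, 0.581% and 0.191% in E0771 with MRTFA, with MRTFB and in controls, and 22.9% and 0.0413% in B16F10 libraries labelled MRTFA and controls. Per kilobase of the longest transcript it was 69.5% and 23.3% in E0771 with MRTFA and MRTFB and 43.9% in B16F10 libraries labelled MRTFA.

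Counts over all genes moved more. For MRTFB in E0771 (19) they were 3 without a filter, 51 by DESeq2, 33 with the block, 5 with only the groups compared and 7 to 15 with single libraries left out. For MRTFA in B16F10 (209) they were 107 at a filter of 50, 357 by DESeq2, 855 with the block and 37 to 324 with single libraries left out. For MRTFB in B16F10 (17) they were 5, 179, 603 and 0 to 129 in the same order, 11 by TMM and 9 with only the groups compared. For MRTFB against MRTFA in B16F10 (148) they were 71 at a filter of 50, 359 with the block and 10 to 213. For the line difference in the MRTFB effect (17) they were 32 with 10 added, 41 by DESeq2 and 2 to 47. For MRTFA in E0771 (5064) the count was 3260 without MRTFA replicate 2. For MRTFB against MRTFA in E0771 (4430) it was 2914 and 2571 without MRTFA replicate 1 and 2. Upper-quartile scaling gave 2670 higher and 2283 lower for MRTFB against MRTFA in E0771 (1916 and 2514 otherwise) and 1669 and 1785 for the line difference in the MRTFA effect (1867 and 1271 otherwise). Low counts limit Actc1 in all controls (2 to 10 reads a library) and with MRTFB in E0771 (9 to 20), and Acta1 (5, 7 and 18 reads) and Actg2 (19, 12 and 63) in B16F10 controls.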

Other observations

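Replicate 3 of E0771 with MRTFA was the lowest of its group in several muscle genes beyond the actins, a pattern noticed after the values were seen and not tested. Ckm, the muscle creatine kinase, had 922, 707 and 226 scaled reads in MRTFA replicates 1 to 3. Myh6, a cardiac myosin heavy chain, had 234, 155 and 51.2, and Nppa, the atrial natriuretic peptide precursor, had 115, 99.4 and 57.5. Cnn1, the smooth muscle calponin, had 2189, 1981 and 932, and Myh11 had 2265, 2329 and 1357. In the same libraries Mkl1 had 12469, 16556 and 12160 scaled reads and Actb 371127, 375292 and 352333.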
